A study of Homo sapiens with 4 samples.

Results

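Respiratory chain subunits encoded in the nucleus were described in the human cell line HCT-8, which comes from a colorectal cancer. Members were chosen by gene symbol: the NDUFA, NDUFB, NDUFC, NDUFS and NDUFV subunits, SDHA to SDHD, and symbols starting with UQCR, COX4 to COX8 or ATP5, plus CYC1 and CYCS, without the NDUFAF assembly factors. This gave 91 genes of 20323 gene rows: 36 of complex I, 4 of complex II, 10 of complex III, 19 of complex IV, 19 of complex V, the electron carrier CYCS and 2 readthrough loci that join a subunit gene to a neighbour. NDUFA4, NDUFA4L2 and COX7A2L were placed with complex IV. NDUFAB1, the acyl carrier protein of complex I, has a symbol outside the rule.

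The tested cells were 5-fluorouracil-resistant HCT-8 cells transfected with a METTL14 overexpression plasmid, and the control cells were the same resistant cells transfected with a negative control plasmid. METTL14 is the partner of METTL3 in the enzyme that methylates adenosine in mRNA. Cells of both groups were treated with cycloheximide, an inhibitor of translation elongation, at 100 µg/mL, so no library shows cells without it. Poly(A) mRNA was sequenced in 2 libraries per group, and the series text says that the experiment was done in 2 independent rounds. The cells were plasmid-transfected, and the labels do not say whether they were selected or cloned.

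The respiratory chain sits in the inner mitochondrial membrane. Complexes I and II pass electrons from NADH and succinate to coenzyme Q, complex III passes them on to cytochrome c, and complex IV reduces oxygen. Complex V, the ATP synthase, uses the proton gradient that complexes I, III and IV build. Complexes I, III, IV and V mix subunits encoded in the nucleus with subunits encoded in mitochondrial DNA, whereas complex II is encoded in the nucleus alone.

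Library totals lay between 19206661 and 20161082 estimated counts, and levels are given as CPM, counts scaled to the TMM-adjusted library size. METTL14 itself had 390 and 421 CPM in METTL14-overexpressing cells, against 24.6 and 30.7 CPM in control cells, a log2 fold change of 3.88 ± 0.14 (SE; edgeR quasi-likelihood test, adjusted p = 7.33e-05). All 8 colorectal epithelial markers passed the count filter, with 3 higher (CDH17, CDH1 and CDX2), 3 lower (KRT8, KRT18 and KRT19) and 2 not called, and their sum was 9230 and 9012 CPM in METTL14-overexpressing cells, against 18140 and 11810 CPM in control cells. Fibroblast markers summed to 19.6 and 18.0 CPM in METTL14-overexpressing cells, against 12.6 and 16.0 CPM in control cells, with 2 of 5 tested higher (PDGFRB at 1.38 and COL1A1 at 0.50 on the log2 scale) and 0 lower. The other tested ones were not called, with COL1A2 at -0.79, COL3A1 at -0.90 and DCN at 0.55, so the list was split in direction. Leukocyte markers summed to 1.90 and 2.08 CPM in METTL14-overexpressing cells, against 1.46 and 1.75 CPM in control cells, with CD3E and MS4A1 at 0. Endothelial markers summed to 1.85 and 1.53 CPM in METTL14-overexpressing cells, against 0.988 and 0.411 CPM in control cells, with KDR at 0. The part of these markers in the results on subunits was not tested.

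Most nuclear-encoded subunit transcripts were lower in METTL14-overexpressing cells. Of the 84 members that passed the filter on low counts, 61 fell, 3 rose and 20 were not called at an adjusted p of 0.05. Among all 12700 tested genes, 28.1% were called lower and 27.0% higher. The median log2 fold change of the tested members was -0.58, or 67.0% of the control level, against -0.01 over all tested genes. In 73 of the 84, both METTL14 libraries lay below both controls, and in 4 both lay above, where 40.0% and 39.8% of all tested genes separated in these directions. In bulk RNA, fewer cells expressing a gene and less of its RNA per cell cannot be told apart.

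**Figure D1:**
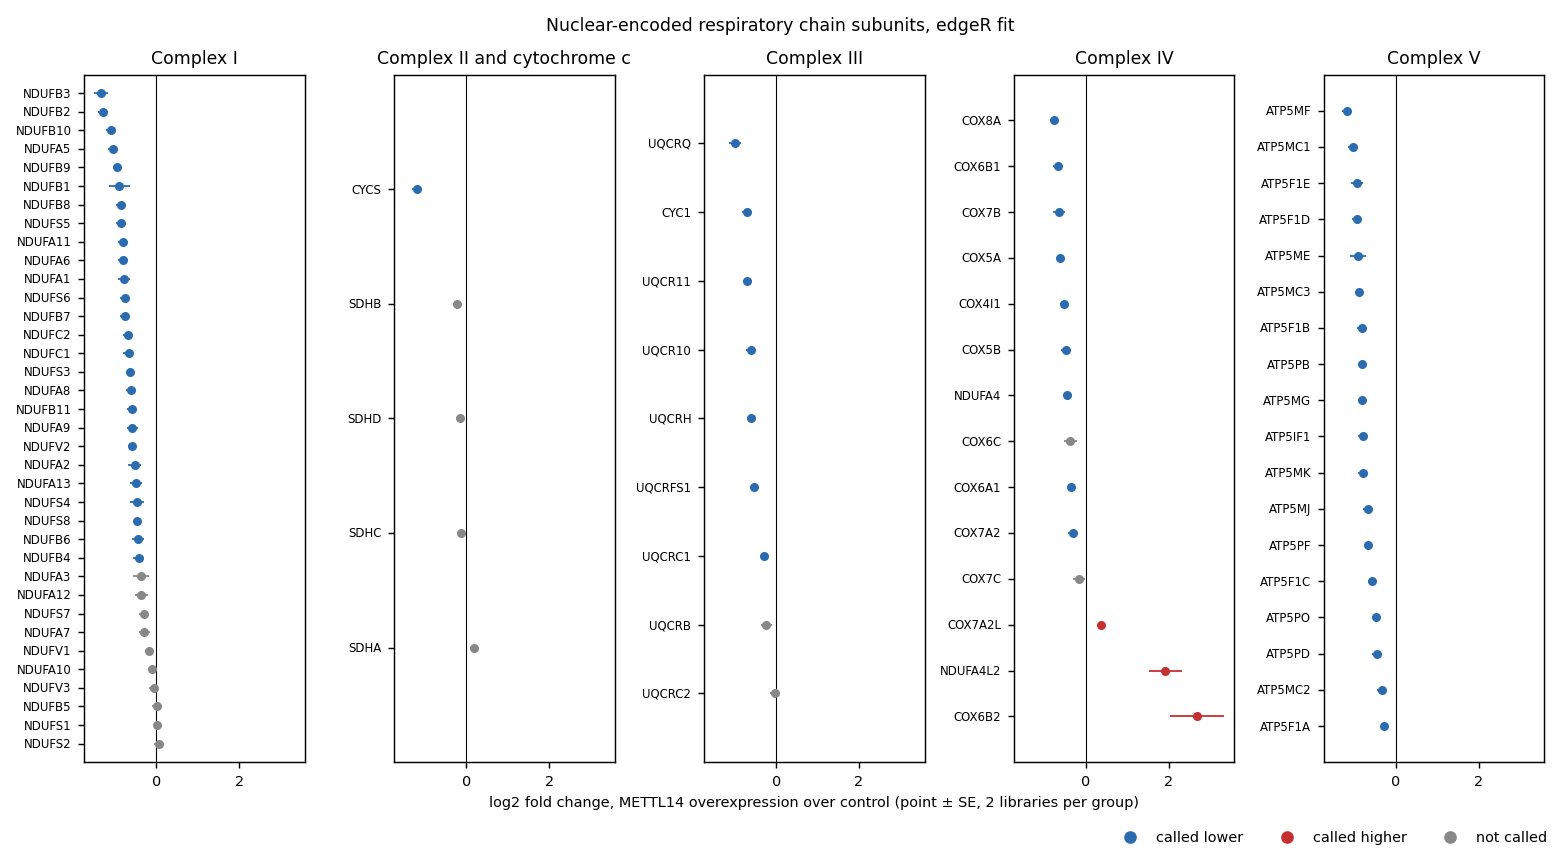
Log2 fold change of METTL14 overexpression over control (x axis) for each tested subunit (y axis) in the panel of its complex, as points with the standard error from 2 libraries per group. All 18 tested complex V subunits and 26 of 36 complex I subunits were called lower, none of the 4 complex II subunits was called, and the 3 called higher are in the complex IV panel. The 2 readthrough loci are not drawn.

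The complexes differed in how many of their subunits were called. Complex V had 18 of 18 tested subunits lower (median log2 fold change -0.81), complex III 7 of 9 (-0.60), complex I 26 of 36 (-0.59), complex IV 9 of 14 (-0.42) and complex II 0 of 4 (-0.13). No test of the difference between complexes was made, so these are counts side by side. Median transcript length was 997 bases in complex V, 1654 in complex III, 960.5 in complex I, 873 in complex IV and 1914 in complex II. Short transcripts were more often called lower across the whole table. The part of length in the differences between complexes was not tested. After a trend on transcript length and GC content was removed from the fit, 40 members were lower, 6 were higher and the median was -0.23. The counts were then 12 for complex V, 5 for complex III, 17 for complex I, 4 for complex IV and 0 for complex II. In that fit 3331 of all 12653 tested genes were lower and 3544 higher, and the complex IV count is near that share.

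Complex I, NADH dehydrogenase, takes electrons from NADH in its N module, passes them to coenzyme Q in the Q module and pumps protons through its membrane arm. The distal part of the membrane arm had 10 of 11 subunits lower (median log2 fold change -0.86) and the proximal part 7 of 9 (-0.67). The Q module had 5 of 8 lower (-0.52) and the N module 4 of 8 (-0.41). The 7 catalytic core subunits that the nucleus encodes, among them the carriers of the flavin and the iron-sulfur clusters, had 3 lower and a median of -0.30, and the 29 accessory subunits had 23 lower and a median of -0.67. Median transcript length was 711 bases in the distal arm, 963 in the proximal arm, 1148 in the Q module, 1006 in the N module, 1039 in the core and 844 among accessory subunits. Over all tested genes 28.1% were lower, and more among short ones. The differences between these groups of subunits, and the part of length in them, were not tested.

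NDUFB2, an accessory subunit of the distal membrane arm, had 17.1 and 17.3 CPM in METTL14-overexpressing cells, against 43.2 and 41.0 CPM in control cells. Its log2 fold change was -1.29 ± 0.11 (SE, n = 2 libraries each; edgeR, adjusted p = 1.9e-04). The groups were far apart relative to the spread within each, although 1239 exon bases of this gene overlap BRAF, and the labels do not say whether counting used strand. NDUFB10, another distal subunit, had 34.6 and 31.6 CPM in METTL14-overexpressing cells, against 67.3 and 73.6 CPM in control cells (log2 fold change -1.09 ± 0.11, edgeR adjusted p = 3.05e-04). NDUFB9, of the same part of the arm, had 64.1 and 63.6 CPM in METTL14-overexpressing cells, against 121 and 126 CPM in control cells (log2 fold change -0.95 ± 0.09, edgeR adjusted p = 2.76e-04). In both genes the METTL14 libraries were about level with each other and below both controls.

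The distal arm also held the largest fall among all members, singled out after its values were seen. NDUFB3, a small accessory subunit, had 195 and 243 counts in METTL14-overexpressing cells, against 481 and 596 counts in control cells (log2 fold change -1.34 ± 0.16, edgeR adjusted p = 5.55e-04). A single distal subunit was not called. NDUFB5 had 50.2 and 48.7 CPM in METTL14-overexpressing cells, against 45.3 and 52.2 CPM in control cells, and the groups overlapped (log2 fold change 0.02 ± 0.12, edgeR adjusted p = 0.893). With the length and GC trend removed its log2 fold change was 0.56 (edgeR adjusted p = 0.00377). NDUFAB1, outside the symbol rule, had 68.0 and 70.9 CPM in METTL14-overexpressing cells, against 120 and 127 CPM in control cells (log2 fold change -0.83 ± 0.10, edgeR adjusted p = 4.67e-04).

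Complex II, succinate dehydrogenase, is both a citric acid cycle enzyme and an entry point of the chain. None of its 4 subunits was called in either direction, where 28.1% of all tested genes were called lower and 27.0% higher. With 4 genes the count is too small to set against those shares, and no test of it was made. However, without control replicate 1 SDHB (-0.23) and SDHD (-0.21) were called lower, and without control replicate 2 SDHB (-0.21) was. SDHA, which binds the flavin, had 221 and 219 CPM in METTL14-overexpressing cells, against 199 and 189 CPM in control cells. Both METTL14 libraries were above both controls, with a log2 fold change of 0.18 ± 0.09 that missed the threshold (edgeR adjusted p = 0.142). SDHA was called higher without control replicate 1 (0.22), without control replicate 2 (0.14) and with library totals alone (0.23, edgeR adjusted p = 0.0476). With 1 control left, the spread is that of the METTL14 pair, which varied less than the controls. More genes were then called over the whole table, so calls without a control are less certain. SDHB, the iron-sulfur subunit, had 140 and 139 CPM in METTL14-overexpressing cells, against 161 and 165 CPM in control cells (log2 fold change -0.22 ± 0.09, edgeR adjusted p = 0.0787). The membrane anchors SDHC and SDHD had log2 fold changes of -0.12 ± 0.09 and -0.14 ± 0.10 (edgeR adjusted p = 0.32 and 0.279). SDHD was called higher (0.31, edgeR adjusted p = 0.0174) once the length and GC trend was removed.

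Complex III, cytochrome bc1, had 7 of 9 tested subunits lower. CYC1, which carries the heme c1 that hands electrons to cytochrome c, had 110 and 108 CPM in METTL14-overexpressing cells, against 188 and 168 CPM in control cells (log2 fold change -0.71 ± 0.10, edgeR adjusted p = 0.00116). UQCRQ, a small subunit beside cytochrome b, had 28.1 and 37.5 CPM in METTL14-overexpressing cells, against 61.8 and 68.6 CPM in control cells (log2 fold change -0.99 ± 0.15, edgeR adjusted p = 0.00156). In neither gene did the groups overlap. UQCR11, another small subunit, had 37.7 and 36.9 CPM in METTL14-overexpressing cells, against 57.6 and 63.5 CPM in control cells (log2 fold change -0.70 ± 0.11, edgeR adjusted p = 0.00153). A second row of the files with the symbol UQCR11 shares exons with it, so its level is less certain. The core protein UQCRC2, which faces the matrix, had 213 and 204 CPM in METTL14-overexpressing cells, against 190 and 235 CPM in control cells, with both METTL14 values between the controls (log2 fold change -0.03 ± 0.12, edgeR adjusted p = 0.865). UQCRHL, a close copy of UQCRH, did not pass the filter, with 10 and 8 counts in METTL14-overexpressing cells and 1 and 4 in control cells.

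CYCS, the soluble cytochrome c that shuttles electrons between complexes III and IV and starts caspase activation when it leaves mitochondria, had 86.7 and 93.1 CPM in METTL14-overexpressing cells, against 220 and 191 CPM in control cells. The METTL14 libraries were at less than 50 percent of either control, and the log2 fold change was -1.19 ± 0.11 (edgeR adjusted p = 2.26e-04). Its annotated transcript, at 4098 bases, is longer than that of most members, and the part of length in its level was not tested.

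**Figure D2:**
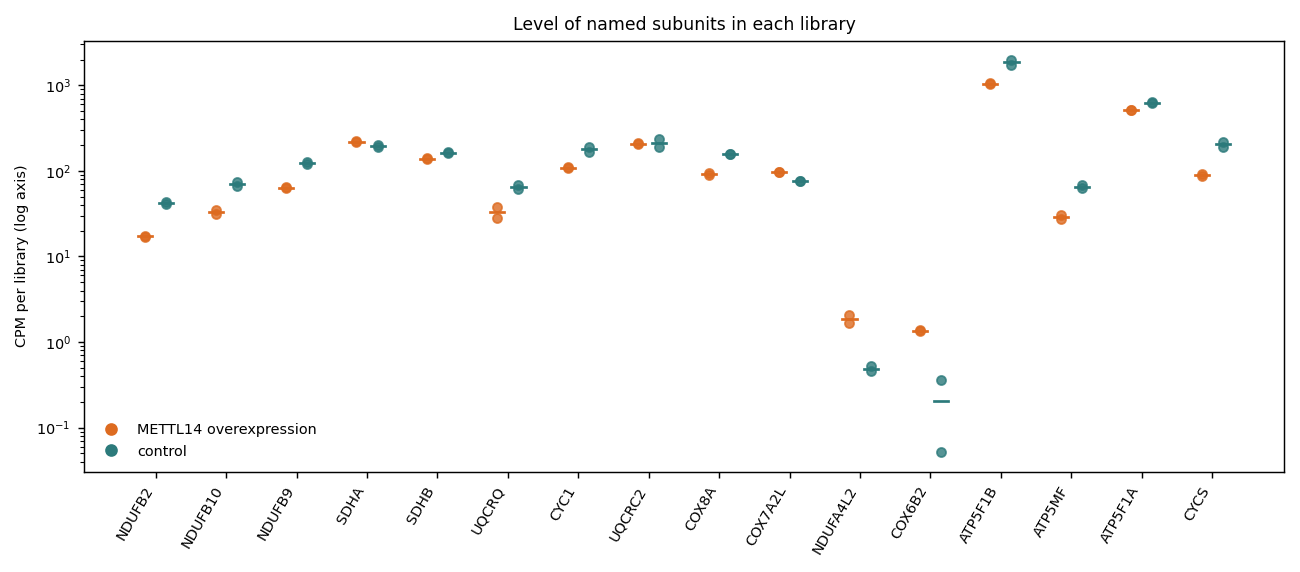
CPM of named subunits in each library on a log axis, as 1 point per library with a bar at the mean of the 2 libraries, METTL14 overexpression left of control for each gene. UQCRC2 is the only gene drawn whose groups overlap. SDHA, COX7A2L, NDUFA4L2 and COX6B2 have both METTL14 libraries above both controls.

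Complex IV, cytochrome c oxidase, had 9 lower and 3 higher of 14 tested. No other complex had calls in both directions in this fit. Of the 3 called higher, NDUFA4L2 and COX6B2 passed the filter through the METTL14 libraries. With the length and GC trend removed, NDUFB5 of complex I was called higher too. COX8A, the ubiquitous isoform of subunit VIII, had 89.5 and 95.6 CPM in METTL14-overexpressing cells, against 157 and 159 CPM in control cells (log2 fold change -0.77 ± 0.10, edgeR adjusted p = 6.05e-04). COX6B1, which faces the intermembrane space, had 63.8 and 65.5 CPM in METTL14-overexpressing cells, against 98.0 and 110 CPM in control cells (log2 fold change -0.68 ± 0.10, edgeR adjusted p = 0.00134). COX5A had 83.7 and 83.4 CPM in METTL14-overexpressing cells, against 127 and 129 CPM in control cells (log2 fold change -0.62 ± 0.09, edgeR adjusted p = 0.00135). In these 3 genes both METTL14 libraries were below both controls. Falls were also called for COX7B (-0.65), COX4I1 (-0.53), NDUFA4 (-0.45), COX6A1 (-0.36) and COX7A2 (-0.32). The calls of COX4I1 and NDUFA4 were lost when the length and GC trend was removed, and that of COX5A too with middle-length transcripts. With the trend removed, COX6A1 had a log2 fold change of 0.18 (edgeR adjusted p = 0.0857), and COX7A2 was called higher at 0.24 (edgeR adjusted p = 0.0495), with the longest transcripts. The calls of NDUFA4, COX6A1 and COX7A2 were also lost without either METTL14 library. Without METTL14 replicate 1, 4 complex IV subunits were called lower. COX7C, with 68.1 and 77.3 CPM in METTL14-overexpressing cells and 71.2 and 92.2 CPM in control cells, overlapped between groups (log2 fold change -0.17 ± 0.14, edgeR adjusted p = 0.35).

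The 3 genes called higher are not standard subunits of the enzyme in most tissues, and the count was 1 without METTL14 replicate 1, 2 without METTL14 replicate 2 and 5 without control replicate 1. COX7A2L, a factor that joins complexes III and IV into supercomplexes, had 98.3 and 97.7 CPM in METTL14-overexpressing cells, against 76.4 and 77.1 CPM in control cells (log2 fold change 0.35 ± 0.09, edgeR adjusted p = 0.0148). The libraries of each group were close together, but the call was lost without either METTL14 library (edgeR adjusted p = 0.191 and 0.176). NDUFA4L2, a paralog of NDUFA4 known as a target of hypoxia-inducible factor, had 40 and 34 counts in METTL14-overexpressing cells, against 10 and 9 counts in control cells (log2 fold change 1.91 ± 0.41, edgeR adjusted p = 0.00604, and 0.075 without METTL14 replicate 1). COX6B2, the testis isoform of COX6B1, had 26 and 28 counts in METTL14-overexpressing cells, against 1 and 7 counts in control cells (log2 fold change 2.68 ± 0.66, edgeR adjusted p = 0.0109). NDUFA4L2 and COX6B2 passed the filter through the METTL14 libraries, so that they differed follows in part from the filter, and both are far below their partners in level.

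The tissue-restricted isoforms were close to silent. COX4I2, COX6A2, COX7A1, COX7B2 and, in complex V, ATP5MGL had 0 counts in all 4 libraries. COX8C had 0 and 1 counts in METTL14-overexpressing cells and 0 and 0 in control cells. None of these was tested. The expressed partners COX4I1, COX6A1, COX7A2, COX7B and COX8A carried the signal of their isoform sets in both groups.

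Complex V, the ATP synthase, had every tested subunit called lower. The catalytic F1 head had 5 of 5 lower with a median log2 fold change of -0.83, the peripheral stalk 4 of 4 (-0.58), the c ring 3 of 3 (-0.90), the small membrane subunits 5 of 5 (-0.82), and the inhibitor ATP5IF1 fell by 0.80. Over all tested genes 28.1% were lower. With the length and GC trend removed, calls were lost for ATP5IF1 (-0.18), ATP5F1C (-0.07), ATP5ME (-0.23), ATP5MJ (-0.13) and ATP5PO (-0.07). ATP5PD then had a log2 fold change of 0.17 and was not called. ATP5MF, a small subunit of the membrane part, had 27.2 and 30.2 CPM in METTL14-overexpressing cells, against 63.0 and 68.0 CPM in control cells (log2 fold change -1.19 ± 0.11, edgeR adjusted p = 2.44e-04). Its exons overlap those of the readthrough locus ATP5MF-PTCD1, which was not called (edgeR adjusted p = 0.152). The catalytic beta subunit ATP5F1B, named for its high count after its values were seen, had 1063 and 1028 CPM in METTL14-overexpressing cells, against 1960 and 1751 CPM in control cells (log2 fold change -0.83 ± 0.10, edgeR adjusted p = 5.89e-04). Its partner in the head, the alpha subunit ATP5F1A, had 521 and 518 CPM in METTL14-overexpressing cells, against 637 and 623 CPM in control cells. That log2 fold change of -0.28 ± 0.09 (edgeR adjusted p = 0.036) was the one closest to 0 in the complex, and its call was lost without either METTL14 library (edgeR adjusted p = 0.359 and 0.367) and with DESeq2 (adjusted p = 0.0546).

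The c ring, whose rotation couples proton flow to synthesis, is built from 1 mature protein encoded by 3 genes that differ in their targeting peptides. ATP5MC1 had 21.2 and 24.1 CPM in METTL14-overexpressing cells, against 45.9 and 47.3 CPM in control cells (log2 fold change -1.04 ± 0.12, edgeR adjusted p = 4.41e-04). ATP5MC3 had 110 and 108 CPM in METTL14-overexpressing cells, against 197 and 209 CPM in control cells (log2 fold change -0.90 ± 0.10, edgeR adjusted p = 3.46e-04). ATP5MC2 had 55.8 and 62.7 CPM in METTL14-overexpressing cells, against 72.4 and 77.4 CPM in control cells, with a smaller log2 fold change of -0.34 ± 0.11 (edgeR adjusted p = 0.0303) whose call was lost without either METTL14 library and with DESeq2 (adjusted p = 0.0607). The difference between the 3 genes was not tested.

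Levels can be set between genes only per length, and TPM values, which scale counts by transcript length and library, were computed for that from annotated lengths. Among members whose length was the same under both ways of choosing a transcript, ATP5F1B stood at 1320 ± 32.0 TPM in METTL14-overexpressing cells and 2172 ± 108 TPM in control cells (SD, n = 2 each). COX6A1 followed at 928 ± 22.1 TPM in METTL14-overexpressing cells and 1105 ± 134 TPM in control cells. SDHB stood at 281 ± 1.31 TPM in METTL14-overexpressing cells and 304 ± 13.8 TPM in control cells. ATP5F1B thus had the highest TPM of these 3 in both groups, beyond the spread of the libraries.

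Transcript length moved with the fold change. Of the 39 tested members with transcripts under 1000 bases, 35 were lower and 0 higher, where 52.7% of all tested genes of that length were lower and 9.66% higher. From 1000 to under 2000 bases, 16 of 23 members were lower and 1 higher, against 34.9% lower and 19.3% higher of all tested genes. At 2000 bases or more, 10 of 22 members were lower and 2 higher, against 24.8% lower and 30.2% higher. The median log2 fold changes in these bands were -0.64, -0.60 and -0.26 for members and -0.46, -0.17 and 0.06 for all tested genes. Spearman's rho between fold change and length was 0.36 over the 84 members and 0.17 over 12653 genes, as a description, since genes share the 4 libraries.

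The choice of transcript matters to these bands. The values above use the longest principal transcript of each gene. With the middle-length one, a choice made after the first results were seen, 41 of 47 members under 1000 bases were lower, where 52.0% of all tested genes of that length were. With that choice the fit without the length and GC trend called 36 members lower and 6 higher, with a median of -0.22. Of all 12653 tested genes, it called 3339 lower and 3571 higher. The part of length in the lower levels of the subunits was not tested beyond these fits.

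**Figure D3:**
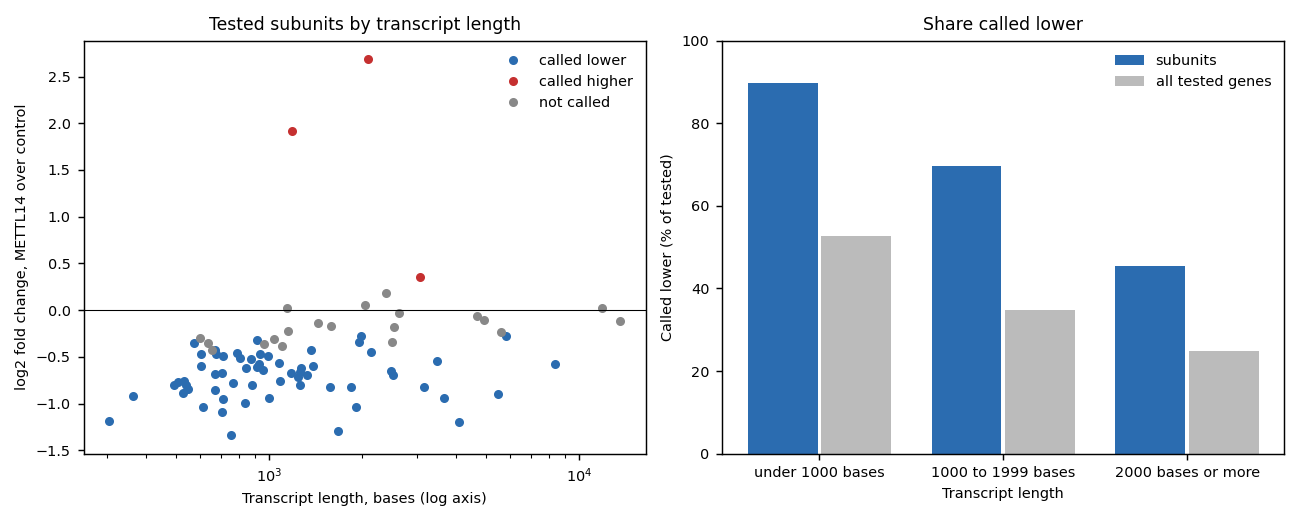
Left, log2 fold change (y axis) against annotated transcript length in bases (log x axis) for each of the 84 tested subunits, coloured by call. Right, percentage of tested subunits and of all tested genes called lower in 3 length bands, 89.7% and 52.7% in the shortest and 45.5% and 24.8% in the longest.

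Of the 13 subunits encoded in mitochondrial DNA, 7 were called higher, 0 lower and 6 were not called, with a median log2 fold change of 0.55, where 27.0% of all tested genes were higher and 28.1% lower. The difference from the nuclear-encoded subunits was not tested. MT-ND6 (1.35 ± 0.10, edgeR adjusted p = 1.18e-04) and MT-CO1 (1.11 ± 0.09, edgeR adjusted p = 1.38e-04) had the smallest p. MT-ND3 (-0.50 ± 0.18, edgeR adjusted p = 0.0507) and MT-CO3 (-0.22 ± 0.09, edgeR adjusted p = 0.0845), singled out after their values were seen, had both METTL14 libraries below both controls. MT-ND6 lies on the other strand from its neighbours, so without a known strand setting its value is uncertain. Nuclear-encoded subunits took 0.667% and 0.681% of counts in METTL14-overexpressing cells, against 0.905% and 0.971% in control cells. Mitochondrially encoded subunits took 9.85% and 10.2% in METTL14-overexpressing cells, against 5.99% and 6.26% in control cells. The ratio of mitochondrial to nuclear counts was 14.8 and 15.1 in METTL14-overexpressing cells, against 6.62 and 6.45 in control cells, and an exact two-sided permutation test on 2 against 2 libraries cannot go below p = 0.333.

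By complex, the nuclear share moved most in complex V, with 0.255% and 0.257% in METTL14-overexpressing cells, against 0.395% and 0.403% in control cells. ATP5F1B alone held 20683 and 20813 of the 48935 and 50942 complex V counts in METTL14-overexpressing cells. In control cells ATP5F1B held 37673 and 34123 of 79571 and 77557, so much of this movement lies in that gene. Complex II took 0.0579% and 0.0583% in METTL14-overexpressing cells, against 0.0560% and 0.0596% in control cells, so its groups overlapped. Leaving the mitochondrial genes out of the fit gave 61 members lower and 3 higher, the same genes as with them.

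**Figure D4:**
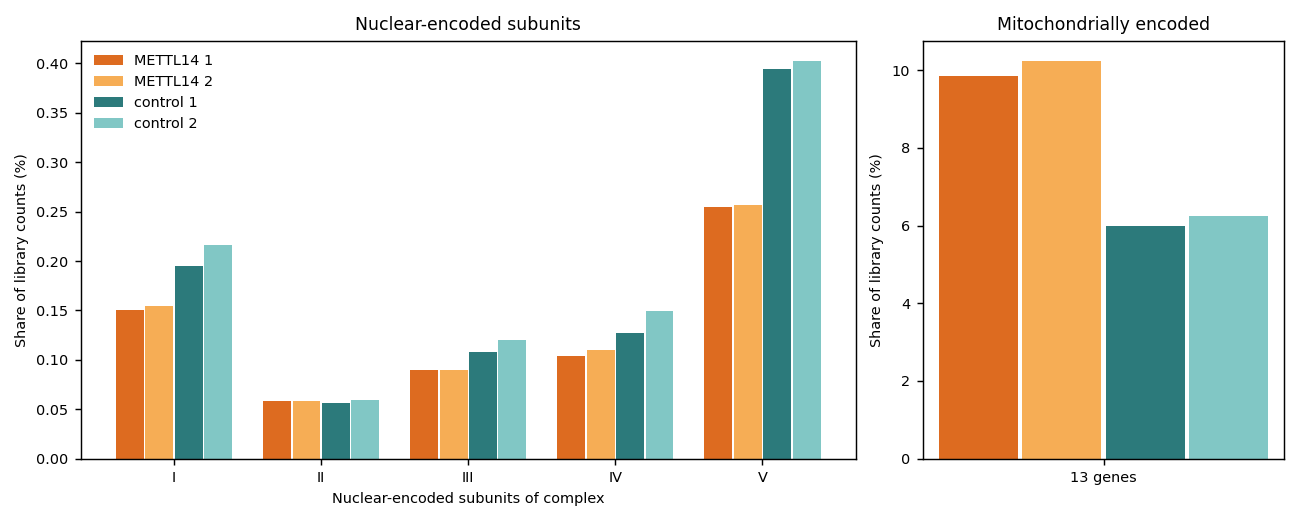
Percentage of all counts of a library (y axis) taken by the nuclear-encoded subunits of each complex (left) and by the 13 mitochondrially encoded subunits (right), 1 bar per library, METTL14 overexpression left of control. Bars of complexes I, III, IV and V are lower in both METTL14 libraries, those of complex II overlap, and the mitochondrially encoded ones are higher.

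Genes that build and feed the chain were counted in lists, to be read against the 28.1% lower and 27.0% higher among all tested genes. Complex I assembly factors had 11 lower and 1 higher of 18, led by NDUFAF8 (-2.21) and ACAD9 (-1.15). Complex III assembly factors had 5 lower and 1 higher of 7, with UQCC3 at -1.87 and BCS1L, which inserts the Rieske protein, at -1.34. Complex IV assembly factors had 8 lower and 2 higher of 22, with COA7 at -0.80 and COA4 at -0.72. Of the complex V factors 2 of 4 were lower (TMEM70 at -0.46 and FMC1 at -0.75), and of the complex II factors 1 of 4, SDHAF3 (-0.71), with SDHAF2 next by p (-0.24, not called). The counts for complexes II and IV are near the share over all tested genes.

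Against the same 28.1% lower and 27.0% higher, coenzyme Q synthesis had 7 lower and 2 higher of 13. PDSS1, which makes the side chain of coenzyme Q, had 4.01 and 4.89 CPM in METTL14-overexpressing cells, against 22.9 and 17.9 CPM in control cells, and COQ8A, a regulatory kinase-like protein, had 158 and 149 CPM in METTL14-overexpressing cells, against 68.1 and 76.2 CPM in control cells. Cristae organisation had 7 lower and 1 higher of 10 (MICOS10 -1.35, CHCHD3 -0.70). Pyruvate dehydrogenase and the citric acid cycle had 8 lower and 0 higher of 18 (IDH3A -1.02, FH -0.81). Transcriptional regulators of respiratory genes had 4 lower and 0 higher of 11, a lower count near that share. TFAM packages mitochondrial DNA and acts in the start of its transcription. TFAM had 16.1 and 18.5 CPM in METTL14-overexpressing cells, against 35.4 and 35.3 CPM in control cells (log2 fold change -1.03 ± 0.12, edgeR adjusted p = 5.34e-04). GABPB1 was at -0.60.

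**Figure D5:**
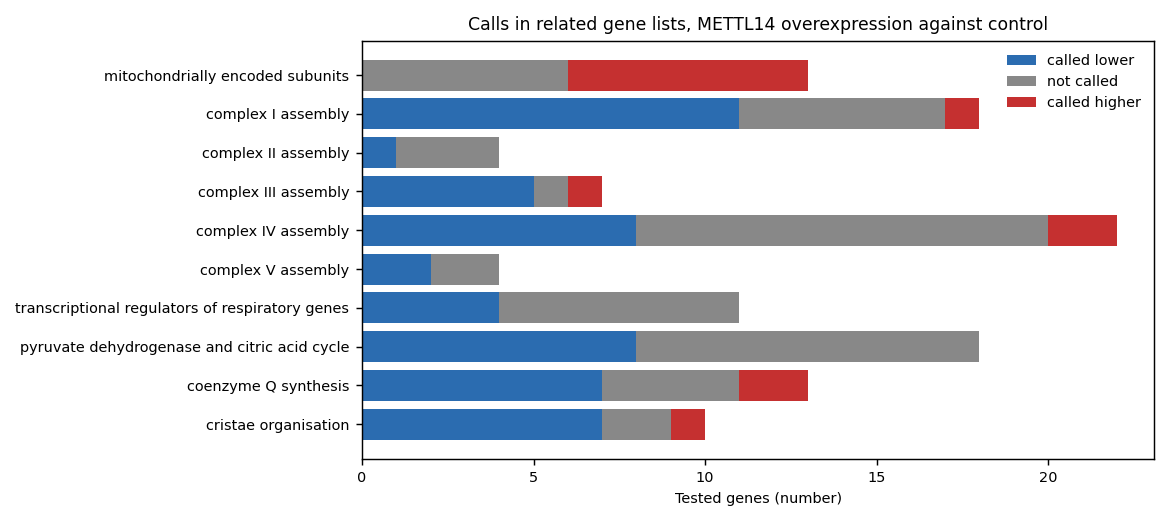
Number of tested genes (x axis) called lower, not called and called higher in METTL14 overexpression against control, for each related gene list (y axis). The 13 mitochondrially encoded subunits are the only list drawn with calls higher and none lower.

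Promoters of these genes are known for sites of NRF1, of ETS factors such as GABPA and of YY1, and the promoter windows of RefSeq (GRCh38.p14, 250 bases before to 50 after the start) were searched on both strands for GCATGCGC, CCGGAAGT and ATGGCGGC. A window was found for 71 of the 91 members. GCATGCGC was in 15 of them (21.1%), where 6.3% of the windows of tested genes and 3.68% of all symbols held it. CCGGAAGT was in 12 (16.9%), against 10.1% of tested genes and 4.95% of all symbols. ATGGCGGC was also in 12 (16.9%), against 7.44% and 3.67%. These matches describe the letters only.

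Fold changes of members with and without a match were set side by side, with no test of the difference. The 15 tested members with GCATGCGC had a median log2 fold change of -0.57, and the 53 without had -0.58. For CCGGAAGT the medians were -0.54 (12 members) and -0.58 (56 members), and for ATGGCGGC -0.48 and -0.61. The windows below were chosen to set promoters of called genes (CYCS, UQCRQ, COX8A) beside those of complex II genes that were not called (SDHB, SDHD). Each is a stretch of 80 bases placed around a match upstream of the start, 5′ to 3′ on the strand of the gene, with GCATGCGC or CCGGAAGT on either strand in capitals. The stretch runs from 200 to 121 bases before the start in CYCS, 80 to 1 in UQCRQ and COX8A, 220 to 141 in SDHB and 130 to 51 in SDHD. The positions are chr7:25125381-25125460 (minus strand) for CYCS, chr5:132866562-132866641 (plus) for UQCRQ, chr11:63974540-63974619 (plus) for COX8A, chr1:17054173-17054252 (minus) for SDHB and chr11:112086743-112086822 (plus) for SDHD. In SDHD, GCATGCGC on the 2 strands overlaps into 1 run of capitals.
CYCS: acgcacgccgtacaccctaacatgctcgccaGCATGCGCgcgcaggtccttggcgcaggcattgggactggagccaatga
UQCRQ: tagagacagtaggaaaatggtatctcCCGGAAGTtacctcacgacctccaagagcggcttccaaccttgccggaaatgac
COX8A: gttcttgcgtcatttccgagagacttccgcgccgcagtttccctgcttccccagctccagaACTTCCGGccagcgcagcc
SDHB: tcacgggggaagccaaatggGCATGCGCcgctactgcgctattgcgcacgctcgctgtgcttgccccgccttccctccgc
SDHD: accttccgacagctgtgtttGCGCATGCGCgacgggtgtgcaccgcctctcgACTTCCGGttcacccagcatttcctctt
CYCS and SDHB both hold GCATGCGC, and their log2 fold changes were -1.19 and -0.22.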

How the data were processed

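Poly(A) mRNA-seq of 4 libraries was used, with groups and replicate numbers from the labels. The authors deposited 1 expected count per gene and library, without normalization. Per the submitters' processing notes, fastp, Bowtie2, HISAT2, StringTie and RSEM were used, with build hg18; roles, versions, annotation and strand setting are not given in the sources used here. Counts were rounded. RSEM divides reads among overlapping or similar genes, so those values are less certain.

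The whole table was fitted in edgeR 4.0.16 (R 4.3.3): filterByExpr with a minimum count of 10, TMM, robust quasi-likelihood test, no covariate, Benjamini-Hochberg adjustment over 12700 genes, threshold 0.05. Standard errors were derived from the F statistic of the test and rest on a spread shared over genes. Replicates differed by more than sampling noise (chi-square per degree of freedom 3.29 for METTL14 overexpression and 28.8 for control). Alternatives used DESeq2 1.42.0 and limma 3.58.1. The fit was also run on data simulated with the same spread in both groups, unlike these libraries, so that run does not cover their unequal spread.

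Transcript length and GC content came from GENCODE 29 (GRCh38), as the longest principal transcript; all 91 members matched. The middle-length transcript was added as an alternative after the results with the longest were seen. For symbols with several rows the row with the highest mean count was used. Members, gene lists and tests were chosen with earlier results of these data known. Genes named are, in each complex, the 3 with the smallest p, the 1 closest to 0 and all called higher, plus CYC1, CYCS, isoform sets and members that failed the filter, and in each list the 2 with the smallest p; others are marked in the text.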

Additional observations from a re-analysis of the deposited data

How the results depend on the processing

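The counts of members called lower and higher were recomputed under 17 settings, of which summing rows of a symbol and the middle-length transcripts were chosen after the data were seen. With DESeq2, 55 members were lower and 3 higher, and with limma-voom 61 and 3. Over all 12700 tested genes, DESeq2 called 3172 lower and limma-voom 3553. Library totals alone gave a median log2 fold change of -0.53. A filter of 5 CPM left 1 member higher. A test against a 1.5-fold change (glmTreat) called 17 lower, with 7 in complex I, 1 in complex III, 0 in complex IV and 8 in complex V. It called 1357 of all 12700 tested genes lower, and the counts for complexes III and IV are near or below that share. Removing the length and GC trend gave 40 lower, 6 higher and a median of -0.23, with 17 lower in complex I and 4 in complex IV. With middle-length transcripts this was 36 lower, 6 higher and -0.22, with 16 lower in complex I, 3 in complex IV and 10 in complex V. Of all 12653 tested genes, 3331 were lower in the first of these fits and 3339 in the second. That trend is fitted across all genes, so it also removes any change that short genes share, and the cause was not tested.

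Leaving out 1 library at a time gave 43 to 70 members lower, 1 to 5 higher and medians of -0.59 to -0.55, with 19 to 29 lower in complex I, 0 to 2 in complex II, 5 to 9 in complex III, 4 to 11 in complex IV and 14 to 18 in complex V. The lowest counts came without a METTL14 library and the highest without a control, and calls over all tested genes moved the same way. With 1 library left in a group, it is assumed to vary like the other group.

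Among the named members, log2 fold changes changed sign for UQCRC2 with library totals alone (0.017), and, after removal of the trend on length and GC, for SDHB (0.14), SDHD (0.31), UQCRC2 (0.12), COX7C (0.31), COX6A1 (0.18) and COX7A2 (0.24). With middle-length transcripts those were 0.0965 for SDHB, 0.27 for SDHD, 0.104 for UQCRC2, 0.44 for COX7C, 0.14 for COX6A1 and 0.17 for COX7A2. Over all 84 tested members, 16 changed sign when the trend was removed and 13 with middle-length transcripts, 7 of the 16 and 5 of the 13 having been called lower. Leaving out a library gave values of either sign for UQCRC2 (-0.17 to 0.13), NDUFB5 (-0.077 to 0.12) and COX7C (-0.34 to 0.029). Over the 30 named tested members and these settings, 17 values changed sign, some of them with a call lost or gained. Of those that kept direction, 442 stayed on the same side of the threshold, 39 lost the call and 10 gained it.

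With the replicate number as a block, 65 members were lower and 3 higher, including all 61. Of all 12700 tested genes, 3903 were then lower. The replicate differences of the 2 groups correlated at 0.044 across genes. The labels do not say whether a number marks a shared round of the experiment, so the libraries were not treated as paired.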
